A study of Drosophila melanogaster with 6 samples.

Results

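The 10 genes described here encode peptide hormones of the adult fly midgut: AstA, AstC, Tk, NPF, CCHa1, CCHa2, Dh31, Mip, Orcokinin and CNMa. In mated females CNMa transcripts were 13.5-fold higher than in virgins (0.486 ± 0.356 against 6.57 ± 0.706 CPM, the read count scaled to a common library size; SD, n = 3 each). CCHa2 was 1.65-fold lower, from 102 ± 17.0 to 62.1 ± 12.6 CPM. NPF and AstA were 1.45-fold and 1.34-fold higher without overlap, but their groups overlapped when libraries were scaled by size alone. Tk was 1.17-fold lower, without overlap under either scaling. Dh31 was 1.70-fold higher on average, with overlapping groups under both scalings. In the CPM given first, 23.9% of all 8607 tested genes were without overlap between the groups. The summed level of all 10 was 481 ± 55.4 CPM in virgin against 440 ± 22.2 CPM in mated midguts, with overlapping groups. With library size alone it was 525 ± 56.0 against 404 ± 39.3 CPM, and every mated library was below every virgin one. CCHa2 was the member that fell most, so leaving it out by itself brings the virgin and mated sums closer. Without CCHa2 the other 9 summed to 379 ± 39.0 CPM in virgin and 378 ± 10.3 CPM in mated midguts, with overlapping groups. With library size alone those 9 summed to 414 ± 41.3 and 347 ± 28.3 CPM, without overlap.

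The members were found by symbol, 10 of the 17116 gene symbols in the count files, and all 10 were present and tested. They were chosen by name with the virgin and mated counts of these same libraries in view. Differences between mated and virgin midguts in these 10 genes are therefore given as descriptions, with no p-value. How many of them passed the threshold applied to all genes is given beside the share of all genes that did, and supports nothing here.

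Peptide hormones of the fly gut are made mainly by enteroendocrine cells, secretory cells scattered through the epithelium that sense the gut content and signal to gut muscle, neighbouring epithelium, fat body, brain and ovary. Each hormone is cut from a longer precursor by convertases, usually amidated, stored in granules and released to act on G-protein-coupled receptors. Enteroendocrine cells of the adult midgut fall broadly into a class that makes AstA and AstC and a class that makes Tk and Dh31, some of which also make NPF. Gut hormones respond to diet, and midgut NPF is known to act on germ line stem cells of the ovary after mating.

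RNA was sequenced from midguts of Drosophila melanogaster females of the w1118 strain, a white-eyed stock labelled as wild type, and the virgin and mated groups share that genotype. Females of both groups were 8 days old, and the mated ones were sampled 3 days after mating. A sample was a pool of 30 guts, with 3 virgin and 3 mated samples. Nothing says that the pools came from separate cultures, so the errors and tests measure the spread between these samples. In whole tissue, fewer hormone-producing cells and less hormone RNA per cell cannot be told apart.

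Gene counts ranged from 15902696 to 29021297 per library, and the 10 hormone genes held 6945 to 15584 of them, or 0.0358% to 0.0574%. CPM are on library sizes scaled by TMM, which aligns the bulk of the genes between libraries. The TMM factors were 1.04 to 1.13 in virgin and 0.860 to 0.965 in mated libraries, so the scaling bears on small differences. With library size alone in its place, the median log2 fold change of all 8607 tested genes moved from -0.05 to -0.30, and the genes called went from 213 higher and 140 lower to 146 higher and 726 lower.

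Markers of the cells in the samples gave the setting. The 5 enteroendocrine markers were all detected, and pros, the factor that defines these cells, had 7.86 ± 1.60 CPM in virgin against 7.76 ± 1.04 CPM in mated midguts. Their sum was 256 to 290 CPM in virgin and 207 to 237 CPM in mated libraries. IA-2, a granule membrane protein, held most of that sum and was lower in every mated library. Without it the other 4 summed to 47.2 ± 3.71 CPM in virgin and 47.7 ± 0.909 CPM in mated midguts with TMM. The median log2 fold change of the 5 markers was -0.01, beside -0.05 for all genes. With library size alone these medians were -0.27 and -0.30. Of 5 genes of brain neurosecretory cells, Ilp2, Ilp5, Pdf and SIFa were at 0 in all 6 libraries, and the sum reached 0.781 CPM in virgin against 2.69 CPM in mated libraries, all of it Akh. The 8 neuron markers summed to 19.2 to 20.1 CPM in virgin and 14.0 to 20.2 CPM in mated libraries, with VGlut and fne at 0. Ovary and germ line markers summed to 31.5 CPM in virgin 2, where osk had 725 counts, and to at most 1.53 CPM in the other libraries.

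Some markers of other tissues moved with mating, though the marker lists too were chosen with earlier results of these data known. All 5 visceral muscle markers passed edgeR's test as higher, with a sum of 1203 to 1498 CPM in virgin and 2103 to 3097 CPM in mated libraries. Of these 5, 3 passed with library size alone, 3 without virgin 1 or mated 1, 2 without virgin 2, 1 without virgin 3 or mated 2, and 4 without mated 3 or with the replicate block. In the list of 5 hindgut and Malpighian tubule markers, which summed to 6.24 to 10.7 and 17.1 to 53.1 CPM, Uro, the urate oxidase of the tubule, was the 1 that passed (log2 fold change 3.41 ± 0.60, SE; edgeR adjusted p = 0.0363). That call was lost with the replicate number as a block (adjusted p = 0.143), with no filter on low counts (adjusted p = 0.0936) and in the fits without virgin 1, virgin 2, virgin 3 or mated 2 (highest adjusted p = 0.134). None of 5 enterocyte, 4 progenitor or 3 tested fat body markers passed in edgeR or DESeq2, or had an unadjusted p below 0.05 in edgeR. The part of these tissues in the hormone levels was not tested.

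**Figure D1:**
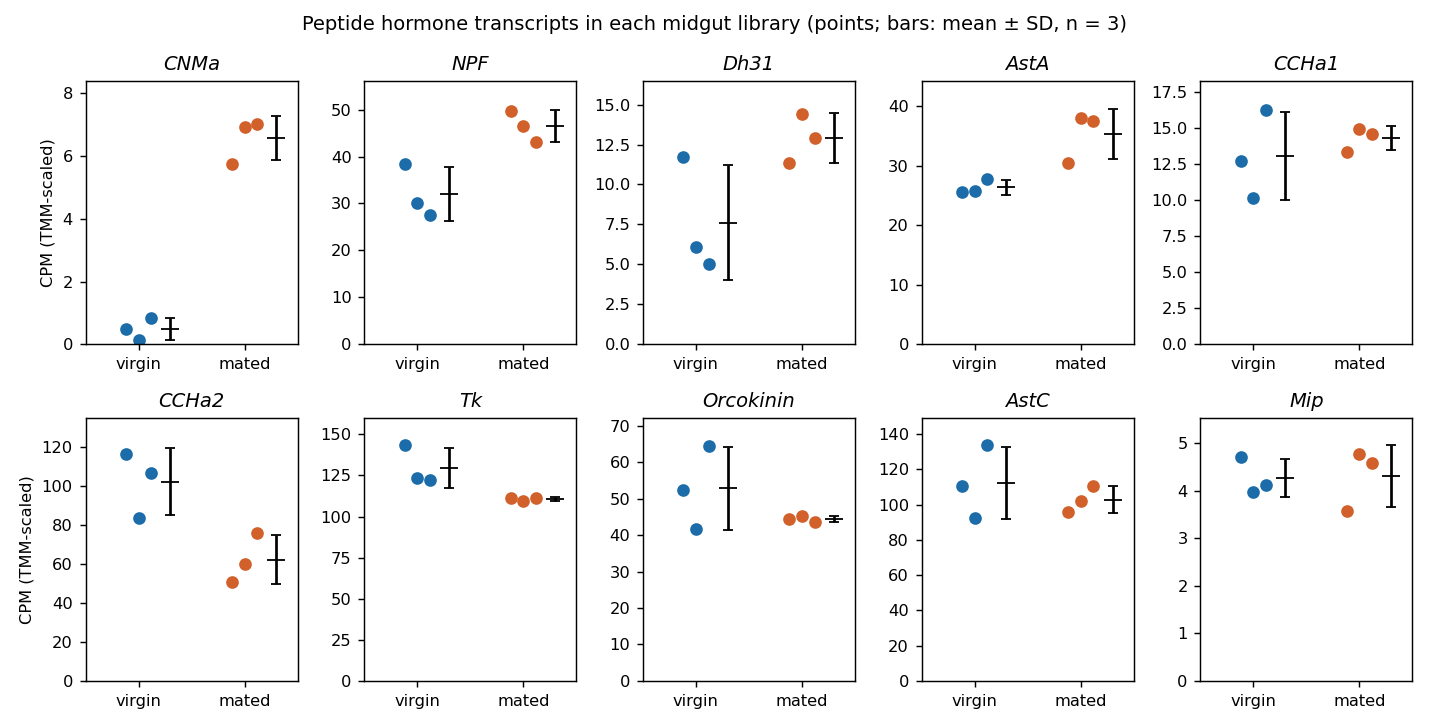
Level of each of the 10 hormone genes in CPM (vertical axes, linear from 0, each panel with its own range) in the 3 virgin and 3 mated libraries; points are libraries and bars give the mean ± SD. CNMa, NPF and AstA stand higher and CCHa2 and Tk lower in every mated library than in every virgin one, while the other 5 overlap. Of all 8607 tested genes, 23.9% were without overlap in CPM, and nothing is read from the count of members.

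Levels were compared between genes per kb of annotated exon sequence, since the precursors differ in length. AstC stood highest with 93.5 ± 17.1 CPM per kb in virgin midguts, followed by Tk (80.1 ± 7.50), CCHa2 (70.1 ± 11.6) and NPF (53.5 ± 9.55). Neighbours among these 4 overlapped. Orcokinin (35.5 ± 7.68) came next, then AstA (18.1 ± 0.863) and CCHa1 (15.2 ± 3.59), which overlapped each other, and Dh31 (5.87 ± 2.79), Mip (3.06 ± 0.282) and CNMa (0.256 ± 0.187) closed the order without overlap. In virgin midguts the range from AstC to CNMa thus spanned more than 2 orders of magnitude in level per kb.

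In mated midguts AstC again stood first, at 85.6 ± 6.29 CPM per kb. NPF was second at 77.6 ± 5.59 CPM per kb, overlapping AstC and above all 3 mated values of Tk (68.2 ± 0.739). CCHa2 followed at 42.6 ± 8.64 CPM per kb, and CNMa (3.46 ± 0.371) reached the level of Mip (3.09 ± 0.467). Per kb of the longest coding sequence, AstC stayed first in both groups, with CCHa2 second and overlapping AstC in virgin midguts. NPF stood behind CCHa2, Tk and Orcokinin in virgin midguts, where it overlapped Orcokinin. In mated midguts NPF was level with CCHa2 (152 CPM per kb each). Lower down, mated Dh31 (36.7 ± 4.44 CPM per kb) then stood above CCHa1 (26.2 ± 1.56) without overlap. Mated CNMa (11.3 ± 1.22) then stood above Mip (6.80 ± 1.03), also without overlap. The order thus depends on which length is used, and the files do not say which transcripts were made.

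**Figure D2:**
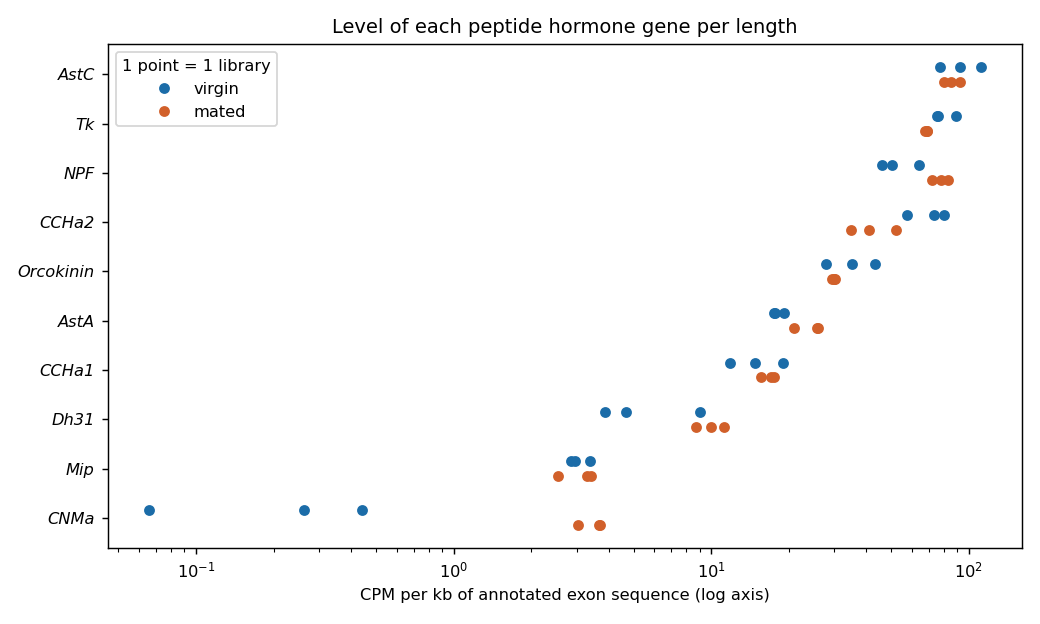
Level of each hormone gene in CPM per kb of annotated exon sequence (log axis), 1 point per library, ordered by the mean over 6 libraries. AstC, Tk, NPF and CCHa2 have the highest means, though CCHa2 overlaps Orcokinin over the 6 libraries. CNMa lies apart at 0.440 or below in the virgin libraries. In the mated ones it lies at 3.03 to 3.69 and overlaps Mip.

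CNMa, the CNMamide hormone, is known from fly work as a product of enterocytes, the absorptive cells, that is induced when essential amino acids are lacking and drives appetite for them. The gene lies on 3L (1850915 to 1855591, minus strand, dm6). It had 15, 4 and 15 counts in virgin 1, 2 and 3 and 126, 109 and 133 counts in mated 1, 2 and 3. In CPM these were 0.498, 0.125 and 0.836 in virgin and 5.75, 6.93 and 7.01 in mated libraries. All mated libraries stood above all virgin ones. The exact Poisson 95% interval of the highest virgin value ended at 1.38 CPM, and that of the lowest mated value began at 4.79 CPM. These intervals cover counting error only. They describe counts that were in view when the gene was chosen, so their separation is no test of the difference.

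The fitted log2 fold change of CNMa was 3.80 ± 0.59 (SE), and 3.55 with library size alone. It ranged from 3.33 to 4.40 when 1 library was left out. CNMa passed the filter on low counts through the mated libraries, so its presence among tested genes followed from being high there. The forward strand held 0 counts of CNMa in all 6 libraries. Counts of its receptor gene, CNMaR, came to 1 in all, in mated 1. The 5 enterocyte markers summed to 36385 to 44049 CPM in virgin and 40598 to 54461 CPM in mated libraries, and their part in the CNMa level was not tested.

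CCHa2 is a nutrient-dependent hormone of gut and fat body, known in the larva to stimulate insulin release from the brain. The gene lies on 3R (13389059 to 13395197, minus strand). Its level was 117, 83.6 and 107 CPM in virgin 1, 2 and 3 and 50.8, 59.8 and 75.7 CPM in mated 1, 2 and 3. The lowest virgin library, virgin 2, was still above the highest mated one, mated 3. Its log2 fold change was -0.72 ± 0.17 (SE), and -0.96 with library size alone. Fat body markers, which could bear on a hormone that fat body also makes, summed to 70.1 to 273 CPM in virgin and 96.9 to 243 CPM in mated libraries, and Fbp1 was at 0; their part in the CCHa2 level was not tested.

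The similarly named CCHa1 is made in the AstC class of cells and is known to link dietary protein to depth of sleep. The gene lies on 3R (14092504 to 14096835, minus strand). CCHa1 had 12.7, 10.2 and 16.3 CPM in virgin against 13.3, 15.0 and 14.6 CPM in mated libraries, with the mated values inside the virgin range. Mated against virgin, the log2 fold change was 0.14 ± 0.21 (SE) and turned to -0.12 with library size alone. Counted within each library, which no scaling touches, there were 0.128 ± 0.0224 CCHa1 counts per CCHa2 count in virgin and 0.235 ± 0.0371 in mated libraries.

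Of the Tk class, Tk encodes the tachykinins, which from the gut are known to lower fat synthesis in enterocytes. The gene lies on 3R (11994175 to 12005473, minus strand). It had 144, 123 and 122 CPM in virgin against 111, 109 and 111 CPM in mated libraries. The mated values lay close together, with a coefficient of variation (CV) of 1.08%, and below every virgin one, although the difference was small. The log2 fold change was -0.23 ± 0.12 (SE) with TMM, -0.48 with library size alone and -0.12 without virgin 1.

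NPF, the fly homolog of neuropeptide Y, lies on 3R (16609220 to 16611325, plus strand), and went the other way from Tk. Its level was 38.5, 30.1 and 27.5 CPM in virgin against 49.8, 46.6 and 43.1 CPM in mated libraries. All mated libraries stood above all virgin ones, with virgin 1 the nearest. Its log2 fold change was 0.54 ± 0.16 (SE). With library size alone it was 0.29, and virgin 1 (39.9362 CPM on that scale) edged above mated 3 (39.8916 CPM).

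Dh31, a calcitonin-like hormone known for driving gut contractions, lies on 2L (8491868 to 8506845, minus strand). It had 11.7, 6.06 and 5.02 CPM in virgin against 11.3, 14.4 and 12.9 CPM in mated libraries. Virgin 1 stood among the mated values while virgin 2 and virgin 3 were at about 5 to 6 CPM, so the groups overlapped through 1 library. Mated against virgin, the log2 fold change was 0.76 ± 0.30 (SE), and 1.25 without virgin 1.

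Set against Tk within each library, both partners of the Tk class were higher in mated midguts. There were 0.268, 0.244 and 0.225 NPF counts per Tk count in virgin and 0.447, 0.427 and 0.388 in mated libraries. For Dh31 the ratio was 0.0815, 0.0492 and 0.0410 in virgin and 0.102, 0.132 and 0.116 in mated libraries. Neither pair of groups overlapped, and the mean ratio was 1.71-fold and 2.04-fold that of virgins. The summed level of Tk, NPF and Dh31 depended on the scaling. It was 169 ± 21.4 CPM in virgin against 170 ± 2.77 CPM in mated midguts with TMM, and 184 ± 14.7 against 156 ± 7.96 CPM, without overlap, with library size alone. The pairs of genes set against each other were chosen after their values were seen.

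**Figure D3:**
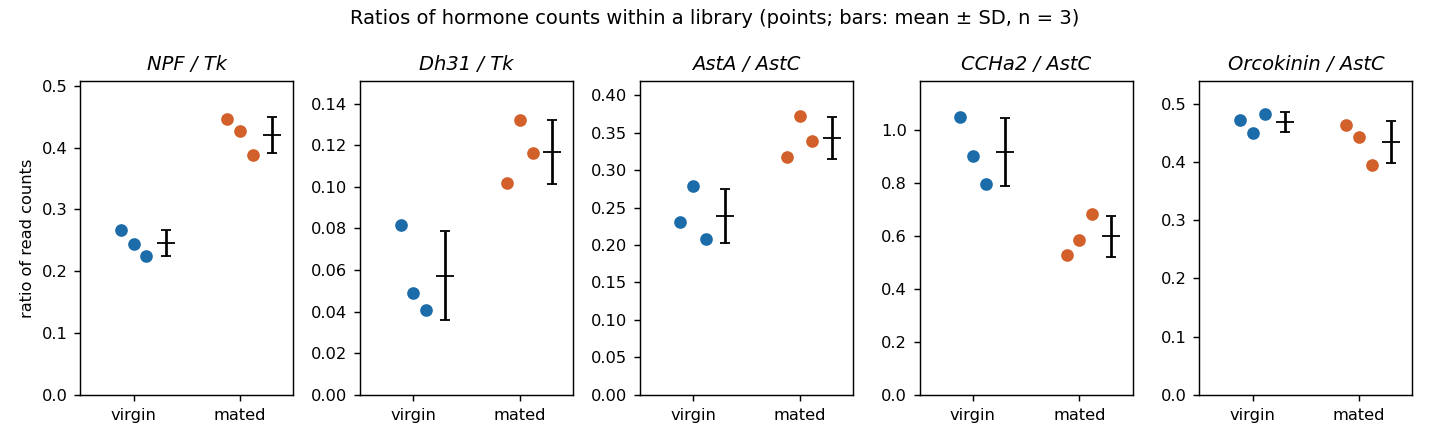
Ratios of read counts of hormone pairs within each library (vertical axes, linear from 0); points are libraries and bars give the mean ± SD over 3 libraries. NPF and Dh31 per Tk and AstA per AstC are higher, and CCHa2 per AstC lower, in every mated library than in every virgin one, while Orcokinin per AstC overlaps. CCHa2 per Tk, which is not drawn, also overlapped, with 0.678 in virgin 2 and 0.682 in mated 3.

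AstA encodes the A-type allatostatins, known for slowing gut muscle and reducing feeding, and lies on 3R (24760530 to 24765071, minus strand). It had 25.6, 25.8 and 27.9 CPM in virgin against 30.5, 38.0 and 37.5 CPM in mated libraries. Mated 1 stood closest to the virgins, and no libraries overlapped. The log2 fold change was 0.42 ± 0.15 (SE), or 0.17 with library size alone, where mated 1 fell among the virgins at 26.2 CPM.

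AstC, the fly's somatostatin-like hormone, known for mobilising energy stores in fasting females, lies on 2L (11076165 to 11081399, minus strand). Its level was 111, 92.7 and 134 CPM in virgin against 95.9, 102 and 111 CPM in mated libraries. The mated values fell inside the virgin range. Its log2 fold change was -0.13 ± 0.15 (SE), ran from -0.24 to 0.04 when 1 library was left out, and was -0.38 with library size alone. Relative to the median of all genes these are -0.08 with either scaling.

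Orcokinin, a member of a peptide family first described in crayfish, lies on 2R (23946959 to 23949076, minus strand) and followed AstC closely. It had 52.4, 41.7 and 64.5 CPM in virgin against 44.5, 45.2 and 43.7 CPM in mated libraries, a log2 fold change of -0.25 ± 0.16 (SE) or -0.50 with library size alone. There were 0.468 ± 0.0169 Orcokinin counts per AstC count in virgin and 0.433 ± 0.0360 in mated libraries, with overlapping groups. For AstA the same ratio was 0.239 ± 0.0359 and 0.343 ± 0.0275, without overlap.

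Mip encodes the myoinhibitory peptides, which inhibit gut muscle and are also ligands of the sex peptide receptor SPR. It lies on 3L (17344947 to 17349666, minus strand) and was the lowest of the 10 per kb in mated midguts. There it overlapped CNMa per kb of exon sequence but not per kb of coding sequence. Mip had 4.71, 3.97 and 4.12 CPM in virgin against 3.56, 4.77 and 4.59 CPM in mated libraries, from 74 to 142 counts each. Its log2 fold change of 0.01 ± 0.32 (SE) turned to -0.23 with library size alone, and the groups overlapped under both scalings.

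**Figure D4:**
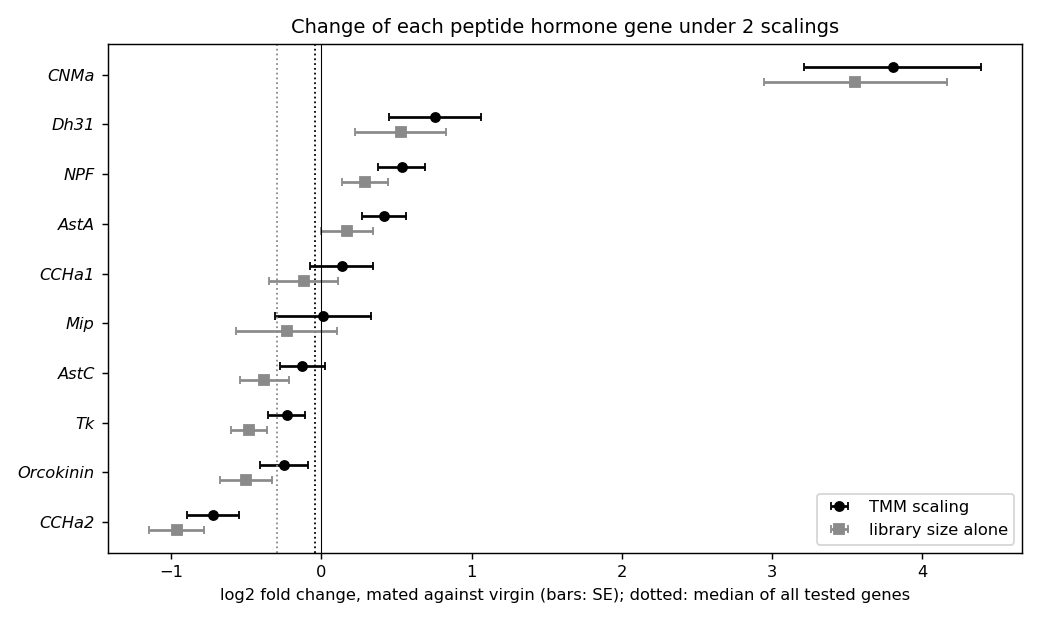
Log2 fold change, mated against virgin, of the 10 hormone genes with standard errors, under TMM scaling (black circles) and library size alone (grey squares); dotted lines mark the median of all tested genes under each. CNMa lies at 3.80 and CCHa2 at -0.72 with TMM, and CCHa1 and Mip lie on different sides of 0 under the 2 scalings.

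In edgeR's fit over all genes, 2 of the 10 members passed an adjusted p of 0.05, as did 4.10% of all tested genes. One was CNMa, higher (2.47% of all genes were higher), and the other CCHa2, lower (1.63% were lower). The 3 mated and 3 virgin libraries did not overlap in 5 members, against 23.9% of all genes: CNMa, NPF and AstA were higher (11.6% of all genes) and CCHa2 and Tk lower (12.3%). Nothing is read from these counts, since the genes were chosen with this contrast in view. The members' median log2 fold change was 0.07 beside -0.05 for all genes, or -0.17 beside -0.30 with library size alone. Which members passed also varied with the fit. CCHa2 did not pass with RLE scaling, the replicate number as a block, or without virgin 1, virgin 3, mated 1 or mated 2; its log2 fold change in the fits without 1 library ran from -0.88 to -0.58. NPF and Dh31 passed without virgin 1, and Tk with library size alone.

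The mix of hormone transcripts is given by the share of each member. Of the summed CPM per kb, NPF made up 14.3 ± 2.31% in virgin and 21.5 ± 2.35% in mated midguts, and CCHa2 18.6 ± 1.08% and 11.7 ± 1.97%. AstA went from 4.87 ± 0.556% to 6.69 ± 0.601%, Dh31 from 1.55 ± 0.633% to 2.75 ± 0.285% and CNMa from 0.0655 ± 0.0457% to 0.955 ± 0.0722%. Each of these shares was without overlap between groups, from which nothing is read, since the genes were chosen with this contrast in view. AstC held 24.9 ± 2.92% and 23.7 ± 0.898%, Tk 21.5 ± 2.14% and 18.9 ± 0.796%, and the shares of Orcokinin, CCHa1 and Mip also overlapped. Shares are free of library scaling but not of each other, since they sum to a whole.

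Spread within a group was larger among virgins for most members. In virgin libraries the CV was 9.37% for Tk, 18.3% for AstC, 21.7% for Orcokinin and 47.5% for Dh31, where counting alone gives 1.77%, 1.87%, 2.74% and 7.98%. In mated libraries the CV was 1.08%, 7.35%, 1.70% and 12.1% for the same genes, where counting gives 2.21%, 2.29%, 3.48% and 6.46%. Mated Tk and Orcokinin thus varied less than counting error would give for 3 libraries. AstA, Mip and CCHa2 had the larger CV in mated libraries. Genes outside the members also went both ways: the CV in virgin and mated libraries was 8.94% and 1.11% for exex and 14.0% and 17.4% for Dh31-R. The share of all genes with a larger spread among virgins was not computed, so nothing particular to the hormones is read from this. Among the virgin libraries, AstC, Orcokinin and CCHa1, of the 5 members of the AstC class, were highest in virgin 3 and lowest in virgin 2. AstA was also highest in virgin 3 but lowest in virgin 1. Mip was also lowest in virgin 2 but highest in virgin 1. Of the Tk class, Tk, NPF and Dh31 were all highest in virgin 1 and lowest in virgin 3, again among the virgin libraries only.

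Likeness of profiles was measured as the root mean square difference of log2(CPM + 1) over the 6 libraries, each profile centred on its own mean. Orcokinin and AstC were each other's nearest member, at 0.0933. Tk and Mip were nearest to each other at 0.163, but each was closer to a flat line, at 0.136 and 0.123, so no shared profile is read from that pair. NPF was nearest to AstA at 0.239, Dh31 to NPF at 0.258, and CNMa had its nearest member, Dh31, at 0.901. Among 6588 other genes with a mean of at least 5 CPM, the profile of the 10 members summed was most like those of stmA (0.0280), Atg2 (0.0363) and CG4734 (0.0411). The summed profile itself differs from a flat line by 0.124, so these are nearly flat profiles.

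The other genes of the pathway, which are no members, were tested in the same fit. Their lists, that of the further hormones included, were also chosen with earlier results of these data known. The p-values of these genes are therefore no independent support. Of 14 transcription factors of enteroendocrine cells, 10 were tested and none passed in edgeR or DESeq2 and 0 had an unadjusted p below 0.05. Ptx1 had 157 ± 11.3 CPM in virgin against 142 ± 5.34 CPM in mated midguts, and exex 113 ± 10.1 and 112 ± 1.25 CPM. Both are homeodomain factors. The median over the 10 was a log2 fold change of -0.17, or -0.42 with library size alone.

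Of 12 receptors of these hormones, 7 were tested and none passed in edgeR or DESeq2 and 0 had an unadjusted p below 0.05. Dh31-R, the Dh31 receptor, had 79.9 ± 11.2 CPM in virgin against 91.2 ± 15.9 CPM in mated midguts, a log2 fold change of 0.19 ± 0.16 (SE) that turned to -0.05 with library size alone. AstA-R2 had 28.2 ± 4.90 and 23.5 ± 3.07 CPM. The other tested receptors were AstC-R2 (9.13 ± 3.12 and 11.4 ± 2.13 CPM), CCHa1-R (2.91 ± 0.784 and 2.60 ± 0.444), TkR99D (2.67 ± 1.41 and 2.18 ± 0.879), NPFR (2.00 ± 0.571 and 1.20 ± 0.216) and AstC-R1 (1.65 ± 1.45 and 1.34 ± 0.161). AstA-R1, CCHa2-R, SPR and CNMaR had too few counts to be tested. TkR86C had 0 counts in all 6 libraries, which allows up to 3 counts, or 0.0937 to 0.191 CPM, per library.

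Of 14 genes of peptide processing and regulated secretion, 13 were tested and none passed in edgeR or DESeq2, while 1 had an unadjusted p below 0.05. That 1 was IA-2, at 222 ± 14.7 CPM in virgin against 174 ± 14.3 CPM in mated midguts (log2 fold change -0.35 ± 0.13, SE; edgeR adjusted p = 0.173). IA-2 was lower in all 3 mated libraries and passed with library size alone (adjusted p = 0.0107). The carboxypeptidase svr, which trims cut peptides, had 124 ± 14.9 and 129 ± 9.06 CPM.

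Of 9 sensors of nutrients and stimuli known from enteroendocrine cells, 4 were tested and none passed in edgeR, while 1 did so in DESeq2 and 1 had an unadjusted p below 0.05. In both cases this was path, an amino acid transporter, at 118 ± 13.8 CPM in virgin against 175 ± 44.9 CPM in mated midguts (log2 fold change 0.56 ± 0.18, SE; edgeR adjusted p = 0.127; DESeq2 adjusted p = 0.0328). For path it was 0.34 without mated 1 (edgeR adjusted p = 0.346). TrpA1, a channel for irritants, had 30.2 ± 4.84 and 25.7 ± 4.22 CPM.

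Of 38 further peptide hormone genes, most of them known from the nervous system, 18 were at 0 in all libraries and 7 were tested. Only Ilp3, an insulin-like peptide known from the muscle of the midgut and from the brain, passed in edgeR, and it was higher in mated midguts. It had 109, 72 and 110 counts in virgin and 355, 249 and 286 counts in mated libraries, which makes 3.62, 2.25 and 6.13 CPM against 16.2, 15.8 and 15.1 CPM (mated mean 15.7 ± 0.576, SD). The log2 fold change was 1.99 ± 0.32 (SE; edgeR adjusted p = 0.00574), with all 3 mated libraries above all virgin ones, and it passed in all 13 fits run (adjusted p up to 0.0425). Nplp4, named after its values were seen, was the other gene of this list with an unadjusted p below 0.05 and passed in DESeq2 but not in edgeR (adjusted p = 0.0153 and 0.0740); it had 0, 0 and 1 counts in virgin and 14, 17 and 11 counts in mated libraries. Ilp2 and Ilp5, which the insulin-producing cells of the brain make together with Ilp3, were at 0 in all libraries. Visceral muscle markers were higher in the same libraries, and their part in the Ilp3 level was not tested.

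**Figure D5:**
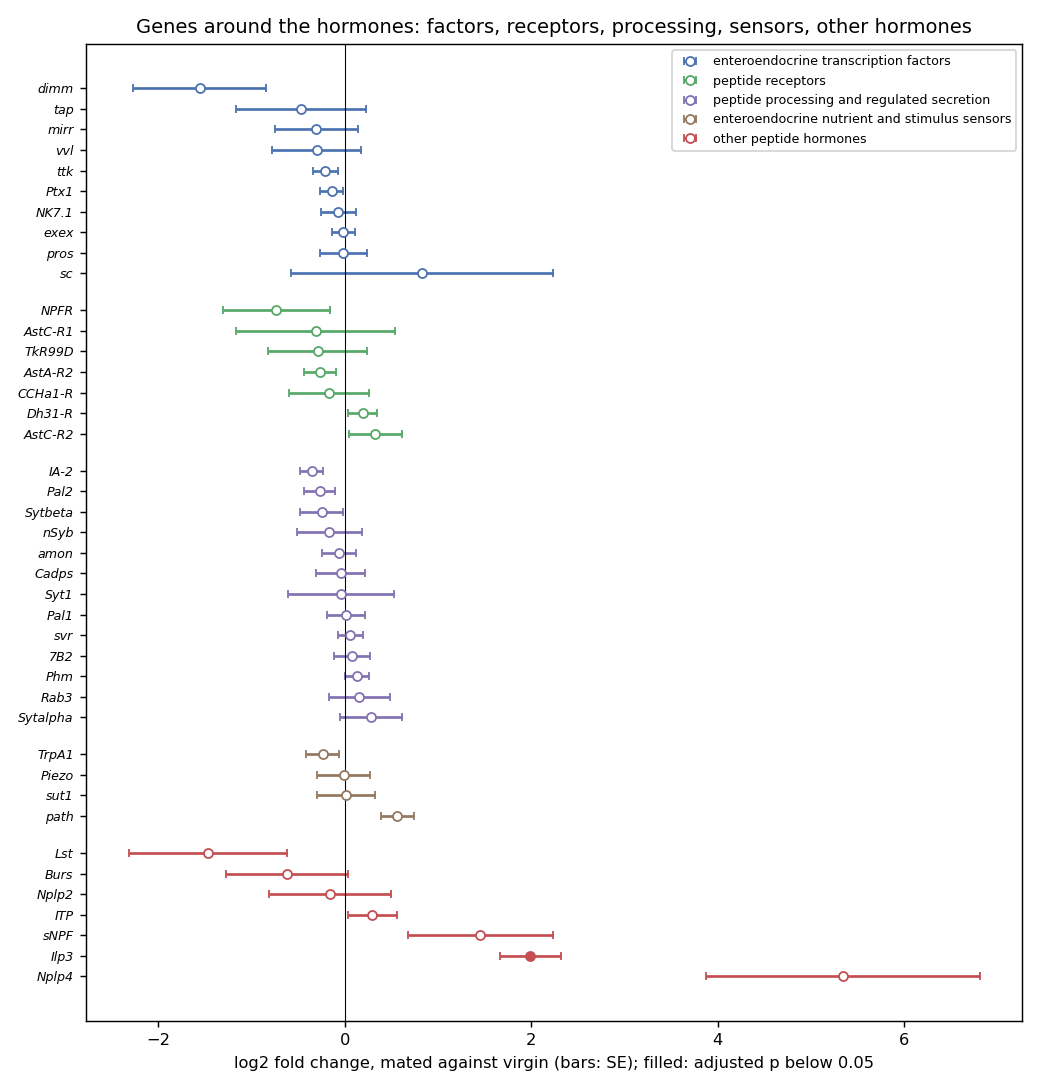
Log2 fold change, mated against virgin, with standard errors, of all tested genes in the lists of enteroendocrine transcription factors, receptors, processing and secretion genes, sensors and other peptide hormones; filled points passed an adjusted p of 0.05. Ilp3 at 1.99 is the single filled point; Nplp4, at the far right, rests on at most 17 counts per library and did not pass.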

How the data were processed

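The authors deposited raw read counts per gene, 1 file per library, with 3 columns for unstranded, forward-strand and reverse-strand counting. The tools CASAVA 1.8.4, STAR and DESeq2 1.42.0 and the build dm6 are named, without roles, per the submitters' processing notes; the release of the gene annotation was "not given in the sources used here". Per the labels' protocols, the kit was stranded and selected mRNA, so the reverse-strand column was used and 4 summary rows per file were left out. Unmapped reads made up 5.47% to 12.8% and reads in no gene 4.82% to 8.93% of a library.

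Here edgeR 4.0.16 (R 4.3.3) was run on all libraries: filterByExpr, TMM, and the quasi-likelihood test with robust dispersion and group as the only term, with Benjamini-Hochberg adjustment over 8607 genes. The pipeline was also run on simulated counts with 200 genes changed, drawn with the dispersions fitted to these data. That run cannot test the choice of scaling or the dependence on single libraries. Standard errors come from the F statistic. Positions and lengths come from the Ensembl annotation in dm6 coordinates; all 10 members matched, and none shared exon bases with another annotated gene. Of 134 listed genes, 133 matched symbols; Gpa2 was not analysed here. Named from each list are the genes that passed, or the 2 highest by mean CPM where none did, all members and receptors, and the nearest profiles. Alternatives were RLE scaling, library size alone, no low-count filter, DESeq2 1.42.0, the replicate number as a block, unstranded counts, and each library left out. Members and lists were chosen with earlier results of these data known.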

Additional observations from a re-analysis of the deposited data

How the results depend on the processing

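The count of genes that passed was 353, and it was 872 with library size alone, 603 with DESeq2, 290 with the replicate block, and 169 to 308 when 1 library was left out (225 without virgin 2, 169 without mated 2, 191 without mated 3). The replicate numbers carry no stated pairing: deviations of same-numbered libraries correlated across genes at -0.155, -0.0496 and -0.0272. Of the 10 hormone genes, 2 passed, or 1 with RLE scaling or the replicate block, and 1 to 3 when 1 library was left out; the cause was not tested. The log2 ratio of the summed hormones was -0.13, and moved to -0.38 with library size alone, where the groups no longer overlapped. That ratio ran from -0.21 to -0.04 when 1 library was left out, and was -0.05 with each gene taken per kb before summing. Signs turned in genes that did not pass: exex was 0.01 with RLE scaling and with DESeq2 (0.0120 and 0.0124) and -0.0533 to 0.0877 when 1 library was left out (0.0877 without virgin 1), Dh31-R was -0.0476 and svr -0.194 with library size alone, and svr ran from -0.0319 (without virgin 2) to 0.138 when 1 library was left out. CNMa in virgin libraries rests on 4 to 15 counts, and depth limits the size of its difference.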
